A study of Mus musculus with 21 samples.

Results

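The natural killer receptor gene complex on mouse chromosome 6 was described through its DNase I hypersensitive sites (DHS), which mark open chromatin, at 3 stages of innate lymphoid development, and through the binding of TCF1 at the middle stage. All peaks of the 4 deposited lists that overlapped the 2 Mb between positions 128400000 and 130400000 of mouse build mm9 were taken, a window chosen to hold the Klrb1, Klrc and Klra genes with Cd69, Klrd1 and Klrk1. These were 96 of 66499 DHS peaks in the all-lymphoid progenitor (ALP), 97 of 70088 in the early innate lymphoid progenitor (EILP), 91 of 71973 in the ILC precursor (ILCP), and 9 of 6679 TCF1 peaks in EILP. DHS peaks that shared at least 1 bp were merged across the stages, which gave 137 regions in the window of 102384 in all.

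The cells were sorted from the bone marrow of C57BL/6 mice, with 300 cells in each of 3 DNase-seq libraries per stage. All sorted cells were Lin- Kit+ 2B4+. ALP were a4b7- Flt3high IL-7Ra+, EILP were a4b7+ Tcf7+ Thy1-, and ILCP were a4b7+ Tcf7+ with both Thy1 and IL-7Ra. The labels give ALP and ILCP the genotype Tcf7EGFP/+ and EILP the genotype Tcf7EGFPnull/+, while the DHS lists themselves are named WT, and this conflict was not resolved. By the labels, all cells carried a reporter allele of Tcf7, the gene of TCF1, and stage and genotype cannot be told apart in a comparison with EILP. TCF1 was mapped by CUT&RUN, in which an antibody brings a nuclease to the bound DNA, with 6 TCF1 and 4 IgG libraries of 500 EILP each, all labelled Tcf7EGFPnull/+. The labels name the TCF1 antibody for the IgG libraries as well. Another 2 CUT&RUN libraries are titled TCF1 but described with the IgG track, and were put in no group. The header of the TCF1 list counts their library number among its controls. By their titles, some CUT&RUN libraries are technical repeats. Each list was called on pooled tags, 12420429 for ALP, 11236009 for EILP, 12681410 for ILCP and 2418839 for TCF1, and neither a replicate error nor a test between stages could be had. Intervals are 95% intervals for counting error, which treat regions or tags as independent.

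The complex encodes C-type lectin-like receptors of natural killer (NK) cells and other innate lymphocytes, and their relatives. NK cells read these receptors as a balance of activating and inhibitory signals when they meet a target cell. The precursors studied here stand before mature NK cells and ILCs, and some of the receptors are used as markers of those mature cells. In the RefSeq gene order (GRCm38.p6), 42 protein-coding genes lie from Klrb1a to Klra1, 24 of them with a Klr symbol. The Klrb1 genes come first, among Clec2 genes, several of which encode ligands of the Klrb1 receptors. Klrb1c encodes the NK1.1 antigen of C57BL/6 mice, Klrb1b encodes an inhibitory receptor for the product of Clec2d, and Klrb1f encodes a receptor for the product of Clec2i. Cd69, an early activation antigen of lymphocytes, follows as gene 13 of the 42. A group of Clec genes of myeloid and other cells lies between Cd69 and Klre1, whose product pairs with those of Klri1 and Klri2. Klrd1 (CD94) pairs with the product of Klrc1 (NKG2A, inhibitory) or Klrc2 (NKG2C, activating), and Klrk1 encodes the activating receptor NKG2D. The last 10 genes are Klra genes, which encode the Ly49 receptors for MHC class I. The peak positions are on mm9 and the gene table is on GRCm38, so no peak was placed at a gene, the sorted cell types were not checked at their marker genes, and regions are named by position.

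Promoter sequences, 250 bases before to 50 after the start, were at hand for 7 of the 9 genes Klrb1c, Klrb1b, Klrb1f, Cd69, Klre1, Klrd1, Klrk1, Klrc1 and Klrc2. The short words CTTTGA and CTTTGT, which are forms of the core bound by TCF and LEF factors, were searched on both strands. At least 1 of them lay in 5 of the 7 (Klrb1b, Klrb1c, Klrb1f, Klrc1 and Klrk1), against 31.3% of the 27025 genes with a promoter in the table. CTTTGA alone lay in Klrb1b, Klrb1f and Klrk1 (16.2% of all promoters), and CTTTGT alone in Klrb1c and Klrc1 (18.7%). The RUNX word TGTGGT lay in 5 of the 7 (16.9% of all promoters), the ETS word GGAAGT in 3 (24.1%), the GATA word AGATAA in Klrb1f (11.4%) and the T-box word TCACAC in Klre1 (14.4%). These matches describe letters only, and whether a TCF1 peak lies on any of these promoters was not analysed here. The 3 Klrb1 promoters and that of Klrk1 are shown to set the related Klrb1 genes side by side with a more distant receptor gene, with their 1 TCF word each in capitals (TCAAAG and ACAAAG are the words read on the opposite strand). They are RefSeq sequences of GRCm38.p6, 5′ to 3′, at chr6:128788592-128788891 (minus strand) for Klrb1c, chr6:128826266-128826565 (minus strand) for Klrb1b, chr6:129045651-129045950 (plus strand) for Klrb1f and chr6:129623815-129624114 (minus strand) for Klrk1. These positions cannot be set beside the mm9 positions of the peaks.
Klrb1c: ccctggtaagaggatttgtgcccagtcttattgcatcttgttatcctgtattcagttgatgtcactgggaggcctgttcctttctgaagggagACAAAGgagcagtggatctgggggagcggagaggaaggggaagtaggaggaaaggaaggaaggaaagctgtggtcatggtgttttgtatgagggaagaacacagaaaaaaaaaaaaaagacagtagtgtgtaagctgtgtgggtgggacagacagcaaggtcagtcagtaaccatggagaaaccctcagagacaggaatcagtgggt
Klrb1b: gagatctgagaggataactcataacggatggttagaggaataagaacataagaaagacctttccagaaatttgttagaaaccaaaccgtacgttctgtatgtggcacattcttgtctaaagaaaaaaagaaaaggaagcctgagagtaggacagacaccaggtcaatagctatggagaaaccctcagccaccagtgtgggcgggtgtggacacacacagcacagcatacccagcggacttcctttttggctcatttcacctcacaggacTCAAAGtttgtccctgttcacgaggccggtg
Klrb1f: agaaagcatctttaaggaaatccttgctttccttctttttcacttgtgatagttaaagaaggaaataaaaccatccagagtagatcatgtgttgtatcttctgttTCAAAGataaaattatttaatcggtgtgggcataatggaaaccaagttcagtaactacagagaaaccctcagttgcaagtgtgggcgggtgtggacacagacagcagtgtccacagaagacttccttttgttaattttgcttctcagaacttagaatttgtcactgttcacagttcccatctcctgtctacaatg
Klrk1: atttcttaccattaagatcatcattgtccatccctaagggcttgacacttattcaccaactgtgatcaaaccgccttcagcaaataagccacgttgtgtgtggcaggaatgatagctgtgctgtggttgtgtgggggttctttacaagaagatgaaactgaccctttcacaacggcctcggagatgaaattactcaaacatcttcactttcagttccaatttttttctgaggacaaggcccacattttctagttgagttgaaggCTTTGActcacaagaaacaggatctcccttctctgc

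The Klrb1 promoters share stretches of sequence with one another. The longest run common to Klrb1b and Klrb1f was 22 bases, agtgtgggcgggtgtggacaca, from base 193 of the former and base 183 of the latter. Klrb1c and Klrb1b shared the 16 bases atggagaaaccctcag. The longest run shared by the Klrc1 and Klrc2 promoters was 12 bases, little more than the 10 shared by some pairs from different families, such as Klrb1c and Klre1. All these runs are shorter than a tag of 50 bp, so they do not show where tags were ambiguous. The Klrb1 and Klrc families arose by gene duplication, and tags of 50 bp from near-identical copies cannot always be assigned to one of them. How such tags were treated is not given in the sources used here, so the number of peaks within a family is uncertain.

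The complex held more open regions than most stretches of its length. Its 137 regions exceeded the count in 80.4% of the 1255 windows of 2 Mb that held at least 1 region, whose median was 69. The 2 Mb before it held 167 regions and the 2 Mb after it 22. Peak heights, counted as extended tags over the summit, were like those of the whole lists. The window's median height was 14, 14 and 15 tags in ALP, EILP and ILCP, against 14, 13 and 13 over the genome. The highest summits reached 51 tags in ALP, 44 in EILP and 47 in ILCP, and the lowest called summits had 6, 5 and 5.

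**Figure D1:**
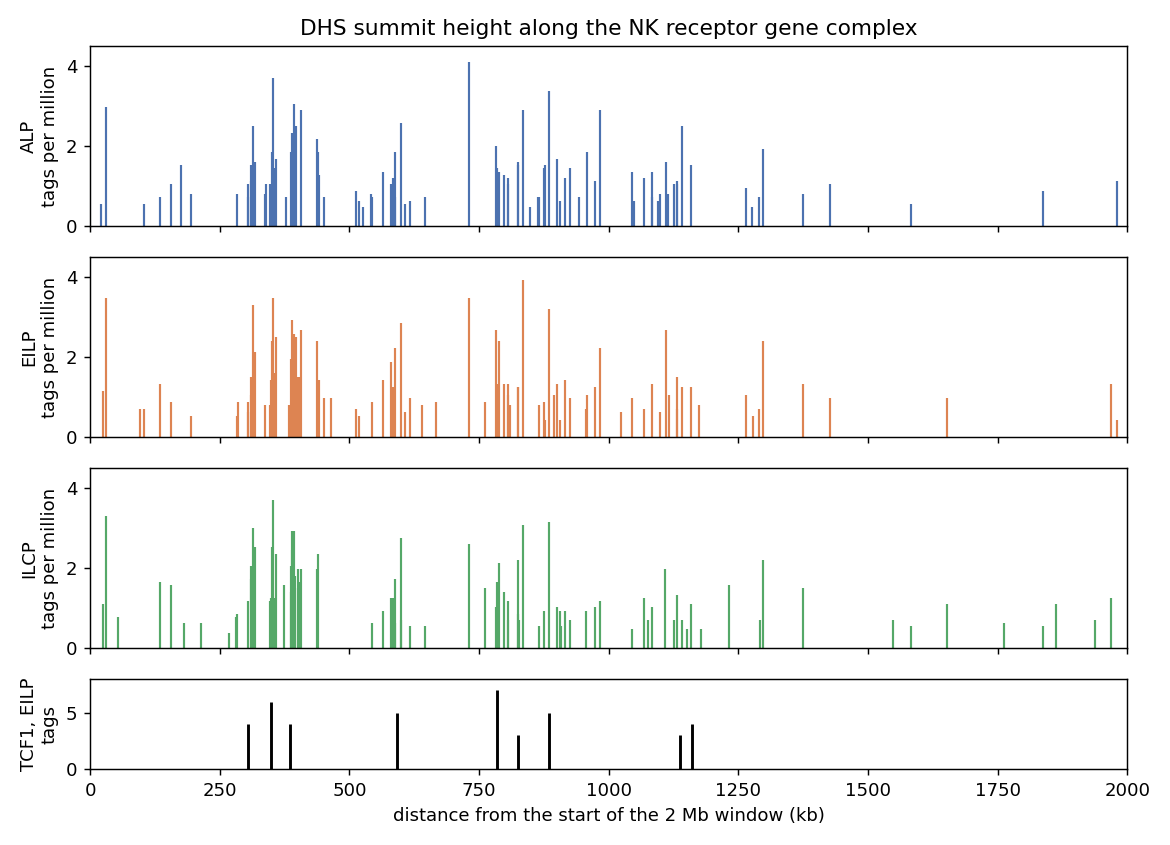
Summit height of every DHS region of the window in ALP, EILP and ILCP (tags per 1000000 tags of the list, y axis) against distance from the start of the window (kb, x axis), with the 9 TCF1 peaks of EILP below (tags). The regions crowd between 200 and 1200 kb, and the last 600 kb hold 10 of the 137.

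Along the window the open regions were uneven. In 10 segments of 200 kb, 52 of the 137 regions lay in the second segment and the third, from 128600001 to 129000000. These 400 kb held 37 of the 96 ALP peaks, 39 of the 97 EILP peaks and 37 of the 91 ILCP peaks. The last 600 kb, from 129800001 to 130400000, held 10 regions, or 7.30% of the total. The widest gap between neighbouring regions, 120.6 kb, lay at 129826970 to 129947569, against a median gap of 7.20 kb.

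Regions open through all 3 stages were the largest class in the complex, at about their share of the genome. There were 56 regions open in all 3 stages, or 40.9% (33.0 to 49.2), against 39.0% of all regions. The first 2 stages shared 18 regions that ILCP lacked (13.1%, 8.48 to 19.8, against 9.52%), and the last 2 shared 9 that ALP lacked (6.57%, 3.49 to 12.0, against 9.27%). EILP alone lacked a peak in 4 regions. One stage alone held the rest, with 17 such regions in ALP, 12 in EILP and 21 in ILCP. For each of these patterns the genome share lay inside the interval of the window's share.

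**Figure D2:**
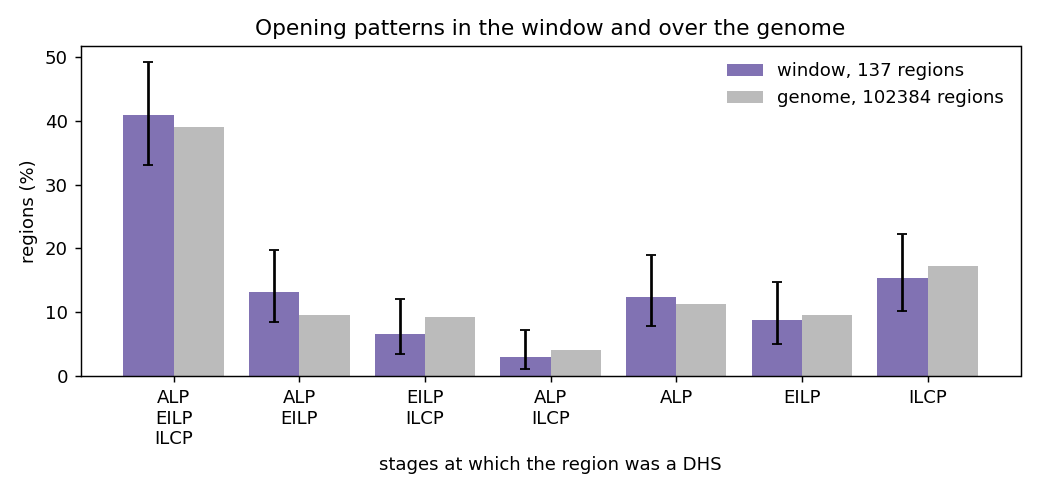
Share of regions (%, y axis) with each opening pattern (x axis) in the window and over the genome, with 95% Wilson intervals for the window. Regions open in all 3 stages were the largest class in both, at 40.9% and 39.0%.

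The regions open in all 3 stages included the highest peaks of the complex. The region with the highest fold enrichment over local background lay at 128429830 to 128430116, with ALP, EILP and ILCP summits of 37, 39 and 42 tags. Its fold enrichment was 19.3, 20.4 and 19.9, so the 3 stages were close to one another there. The region at 129283726 to 129284192 had 42, 36 and 40 tags and held a TCF1 peak. The region at 129130400 to 129130890 had ALP, EILP and ILCP summits of 51, 39 and 33 tags, the first being the highest of the window. Its height was lower at each later stage, but within counting error. After scaling to depth the ratios were 0.845 (0.542 to 1.31) and 0.750 (0.457 to 1.22), both with intervals that spanned 1. The region at 129234398 to 129234857 had 36, 44 and 39 tags, and the one at 129509360 to 129509664 had 20, 30 and 25. Over the 56 regions, height per 1000000 tags of the list (depth-scaled height) rose at both steps in 9 and fell at both in 12, or 16.1% and 21.4%, against 20.8% and 16.1% of the 39882 such regions of the genome.

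Of the 95 regions that EILP had in the window, 21 were gained since ALP (22.1%, 14.9 to 31.4), and 21 of its 95 ALP regions were lost (22.1%, 14.9 to 31.4). Over the genome 28.1% were gained and 24.1% lost, so both shares in the complex were near the background. Of the 21 gained regions 9 were still open in ILCP (42.9%, 24.5 to 63.5, against 49.0% over the genome). The gained regions were low, with a median of 10 tags and at most 17, against a median of 15 in those retained from ALP. Over the genome these medians were 9 and 16. A region counts as absent when it did not pass the caller's cutoff, and does not thereby lack tags.

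The 9 regions that opened at EILP and were kept had between 8 and 17 tags in EILP and between 12 and 25 in ILCP. The region at 128800078 to 128800260 had 17 tags in EILP and 25 in ILCP. Its neighbour at 128804191 to 128804373, named after its values were seen, had 17 and 21. The region at 129160477 to 129160786 had the highest fold enrichment of the class, with 10 tags in EILP and 19 in ILCP. Near the far end of the window, the region at 130369264 to 130369508 had 15 and 16 tags and the one at 130052870 to 130053024 had 11 and 14. The last of the 5 strongest, at 128424173 to 128424466, had 13 and 14 tags. A TCF1 peak overlapped 0 of the 9 (0 to 29.9%), against 5.05% of such regions over the genome, so the count was near the background.

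Regions found in EILP alone had a median of 9 tags. The strongest of the 12 in fold enrichment lay at 129294441 to 129294724 with 12 tags (6.20 to 21.0, exact Poisson interval). The next lay at 128863968 to 128864159 with 11 tags, at 129066430 to 129066534 and 128686270 to 128686420 with 10 each, and at 129038725 to 129038847 with 9. The tallest EILP summit of the class, 16 tags at 128748977 to 128749079, is named after its values were seen. It lay in a stretch of 5.63 times the genome mean tag density, 443 bp from a TCF1 peak. This is the shortest such distance among the 42 regions absent from ALP, which lay up to 807973 bp from a TCF1 peak. The genome share of such regions within this distance was not computed. Of the regions lost at EILP, the one at 128574490 to 128574756 had the most tags in ALP, 19 (11.4 to 29.7), and no peak later. The next tallest, with 16 tags at 129185978 to 129186174, is named after its values were seen. The other 4 regions of highest fold enrichment found in ALP alone had 9 to 14 tags (7.65 to 23.5 for 14). They lay at 128739740 to 128740061, 129373225 to 129373384, 128941973 to 128942090 and 129343341 to 129343524. The 4 regions without a peak in EILP alone had 7 to 13 tags in ALP and 7 or 9 in ILCP, and lay at 129525443 to 129525660, 130238176 to 130238585, 129045241 to 129045416 and 129981718 to 129981914.

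ILCP had 90 regions in the window, 25 of them gained since EILP (27.8%, 19.6 to 37.8), while 30 of 95 were lost (31.6%, 23.1 to 41.5). The genome shares were 30.6% and 28.4%, again inside both intervals. The lost regions had a median of 9 tags in EILP, as over the genome, and at most 16. The 18 regions shared by the first 2 stages and absent from the last included 129357407 to 129357893 with 23 tags in ALP and 12 in EILP, and 129276635 to 129276866 with 19 and 5. The others among the 5 strongest were 130379572 to 130379868 with 14 and 5 tags, 129663715 to 129663937 with 12 and 12, and 128704349 to 128704622 with 13 and 7. The last of these held a TCF1 peak.

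Of the regions found in ILCP alone, 3 had 20 tags or more. The region at 129630486 to 129630750 had 20 tags (12.2 to 30.9) and a fold enrichment of 10.4, the highest of the 21 in this class. The region at 128774174 to 128774394 also had 20 tags and a fold of 10.0. The region at 128786605 to 128786785 had 26 tags (17.0 to 38.1) and a fold of 6.07, beside a local tag density of 5.09 times the genome mean. The next in fold were at 130261959 to 130262202 with 14 tags and at 128453352 to 128453541 with 10. Against a class median of 9 tags, these 3 had the highest summits. At the far end of the window, the last 600 kb held 8 of the 91 ILCP peaks, 4 of the 96 ALP peaks and 4 of the 97 EILP peaks. Over the genome the ILCP list was also the longest, with 71973 peaks against 66499 in ALP and 70088 in EILP. None of the 10 regions there was open in all 3 stages, against 39.0% of all regions. Of the 10, 4 were found in ILCP alone, against 17.2% of all regions. This difference of a few peaks has no replicate check. The last 600 kb was set apart after the values per segment were seen, and no interval was computed for its shares. Its peaks were also low, with segment medians of 8 to 11.5 tags in ILCP against 15 over the window. Whether the missing class goes with peak height was not tested.

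Regions open at both stages of a step were compared by depth-scaled summit height, and a ratio past 1.5 either way was called higher or lower. From ALP to EILP, 6 of 74 shared regions of the window were called higher (8.11%, 3.77 to 16.6) and 9 lower (12.2%, 6.53 to 21.5). Over the genome 16.4% were called higher and 8.04% lower. The median ratio was 1.03 in the window and 1.11 over the genome. After scaling by that genome median, 3 were higher and 14 lower in the window, against 9.84% and 11.7% of shared regions over the genome. From EILP to ILCP, 8 of 65 were called higher and 8 lower (each 12.3%, 6.37 to 22.5), against 10.0% and 15.9%, with median ratios of 0.949 and 0.960. Scaled in the same way, 9 were higher and 5 lower, against 12.2% and 13.2%.

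Few of these ratios had an interval that left out 1. The interval of the ratio lay wholly below 1 in 2 regions at the first step and in 1 at the second, and wholly above 1 in none. The summit at 129276635 to 129276866 had 19 tags in ALP and 5 in EILP, a ratio of 0.291 (0.0849 to 0.805) after scaling to depth, and no peak in ILCP. The summit at 129541584 to 129541889 had 31 tags in ALP, 14 in EILP and 9 in ILCP, a ratio of 0.499 (0.245 to 0.967) at the first step and 0.570 (0.217 to 1.41) at the second. This site was lower at each later stage. The summit at 129182917 to 129183195 had 25 tags in ALP, 30 in EILP and 13 in ILCP, a ratio of 0.384 (0.184 to 0.759) at the second step. The rest of the 5 largest decreases at the first step were 130379572 to 130379868 (0.395), 129357407 to 129357893 (0.577) and 129468131 to 129468324 (0.590), each with an interval that spanned 1. At the second step, the rest of the 5 largest were 129445041 to 129445314 (0.483), 129384255 to 129384656 (0.532) and 129017091 to 129017305 (0.564), again with intervals that spanned 1.

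The largest increases were all within counting error. From ALP to EILP the ratio was 1.84 (0.755 to 4.77) at 128534202 to 128534409, where the summit had 9 and then 15 tags. It was 1.79 at 128980481 to 128980872, 1.76 at 129187817 to 129188200, and 1.66 at both 129509360 to 129509664 and 129774072 to 129774357. From EILP to ILCP it was 2.13 (0.697 to 7.70) at 129305887 to 129306054, where 5 tags became 12. It was 1.77 at 129223707 to 129224048 (14 and 28 tags), at 129468131 to 129468324 (8 and 16) and at 128554558 to 128554824 (10 and 20), and 1.68 at 129160477 to 129160786.

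**Figure D3:**
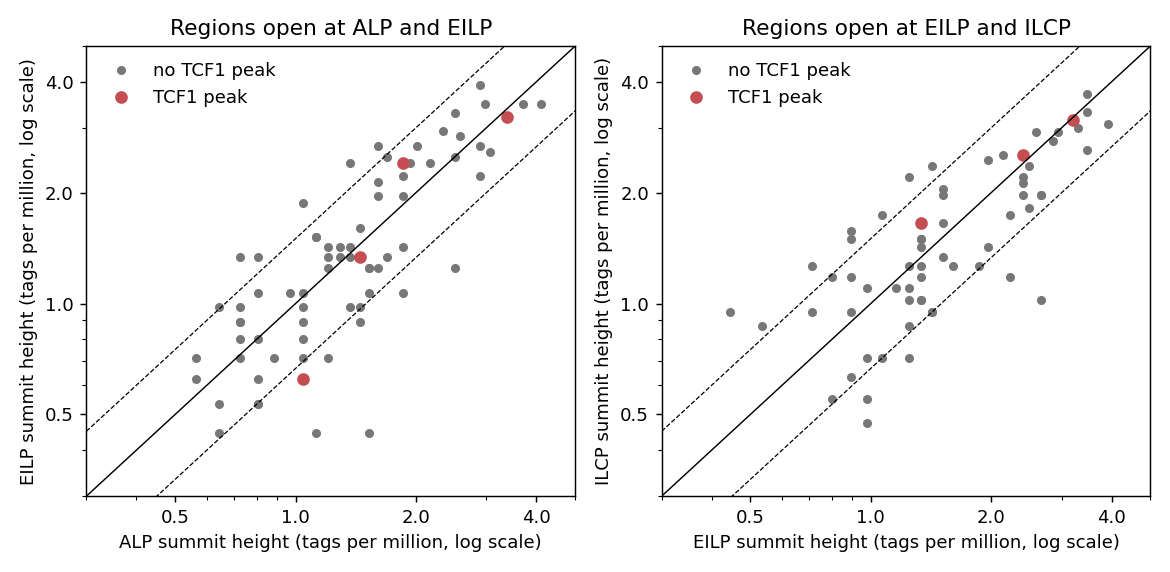
Depth-scaled summit height (tags per 1000000, log scales) of regions open at both stages, ALP against EILP on the left and EILP against ILCP on the right; the solid line marks equal height, the dashed lines a ratio of 1.5, and red points regions with a TCF1 peak. Most points lie between the dashed lines, with 6 above and 9 below them on the left and 8 above and 8 below on the right.

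Summed heights took different courses in 2 stretches, picked after the values per segment of 200 kb were seen. In the second segment, 128600001 to 128800000, summed summit height was 34.1 depth-scaled tags in ALP, 39.2 in EILP and 43.4 in ILCP, from 21, 23 and 24 peaks. In the fifth and sixth segments together, 129200001 to 129600000, it was 45.6, 40.3 and 31.0, from 34, 32 and 28 peaks covering 7671, 7476 and 6003 bp. The mean height per peak there was 1.34, 1.26 and 1.11 depth-scaled tags, against 1.37, 1.45 and 1.34 over the genome. These sums move with what was called, so the regions open in all 3 stages were also compared alone. Their heights are part of the sums by which the 2 stretches were picked, so this comparison is no separate check. In the second segment 12 of 16 such regions were higher in ILCP than in ALP (75.0%, 50.5 to 89.8), with a median ratio of 1.17. In the fifth and sixth segments 6 of 20 were (30.0%, 14.5 to 51.9), with a median ratio of 0.755. Over the genome 54.1% of such regions were higher in ILCP, with a median ratio of 1.05, and over the whole window 30 of 56 were (53.6%). The difference between the 2 stretches was not tested, because there is 1 pooled list per stage.

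**Figure D4:**
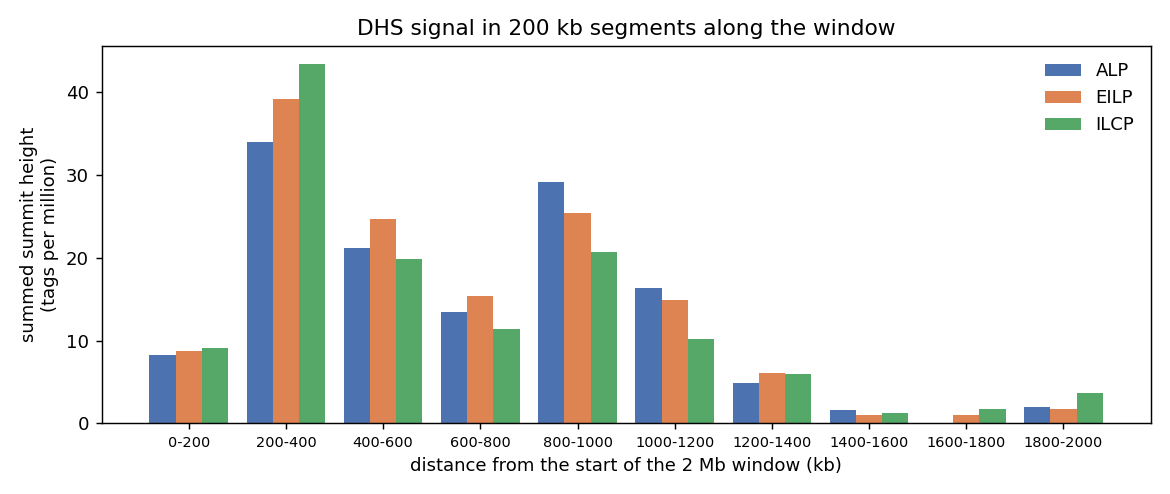
Summed summit height of DHS peaks (tags per 1000000, y axis) in segments of 200 kb along the window (x axis) in ALP, EILP and ILCP. The sum rose from 34.1 to 43.4 between 200 and 400 kb and fell between 800 and 1200 kb.

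The local tag density was also compared. For each DHS peak it is the mean tag coverage of the surrounding 10 kb as used by the caller, with the genome mean as its lower limit, and it includes the tags of the peaks themselves. Its median in the window was 1.58 times the genome mean in ALP, 1.48 in EILP and 1.59 in ILCP, close to the 1.51, 1.56 and 1.47 of all peaks. Densities of at least 4 times the mean, a mark chosen after the values were seen, surrounded 11 of 96 ALP peaks, 15 of 97 EILP peaks and 16 of 91 ILCP peaks. These are 11.5%, 15.5% and 17.6% of the window's peaks, against 4.00%, 4.97% and 4.00% over the genome. All of them lay in the second segment and the fourth, which held 7 and 4 of them in ALP, 12 and 3 in EILP, and 13 and 3 in ILCP.

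The regions named here for their density were chosen after the values were seen. The highest density was found around 128788366 to 128795685, where 5 regions open in all 3 stages lay within 10 kb of one another. At 128789580 to 128789812 it was 6.11 times the mean in ALP, 6.59 in EILP and 7.14 in ILCP, and the summits had 29, 33 and 37 tags. At 128793031 to 128793392 it was 6.49, 6.66 and 6.86, with summits of 38, 29 and 37 tags. At 128753010 to 128753465 it was 5.04, 5.74 and 5.43, with 46, 39 and 47 tags. In the second segment the median ratio of the density between ILCP and ALP was 1.16 over the 16 regions open throughout, and it was above 1 in 15 of them. Over the genome this ratio had a median of 1.00 and was above 1 in 21564 of the 39882 regions open throughout. Several of the 16 regions lie within 10 kb of one another, so their densities share tags and are not independent. The other dense stretch, 129182917 to 129188200, held 3 regions open throughout and 1 found in ALP alone, at 129185978 to 129186174 with 16 tags. Its densities lay between 4.08 and 5.13 times the mean, and at each of the 3 regions open throughout they were highest in EILP and lowest in ALP. Where the density is high a summit needs more tags to be called.

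**Figure D5:**
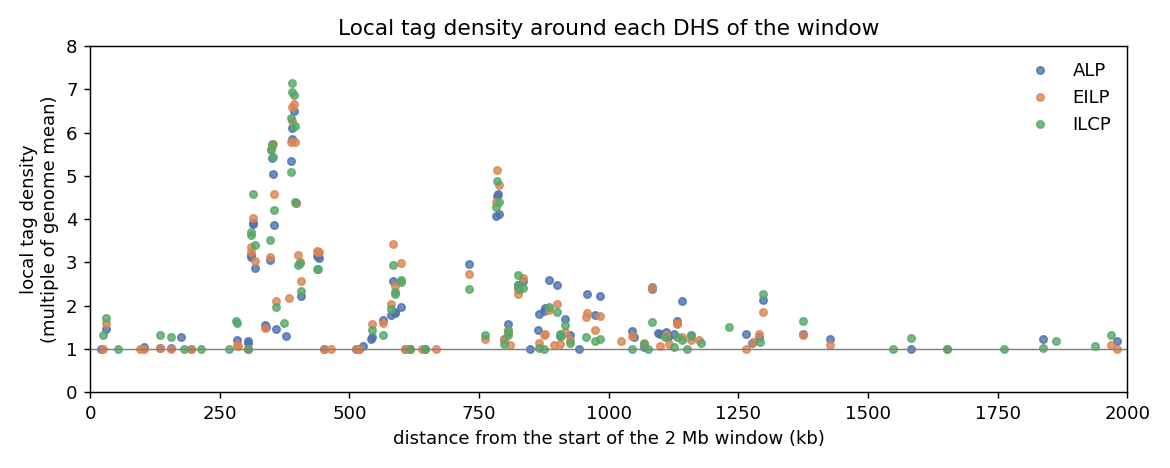
Local tag density around the summit of each DHS region (multiple of the genome mean, y axis) against distance from the start of the window (kb, x axis) for the 3 stages; the grey line marks the genome mean, which is the lower limit. Values of 4 and above are seen only in the segments from 200 to 400 kb and from 600 to 800 kb.

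The 9 TCF1 peaks of the complex had 3 to 7 tags at the summit, with a median of 4 against 5 for all TCF1 peaks, and fold enrichments of 3.43 to 6.41 with a median of 4.43 against 5.15. A peak of so few tags from pooled libraries has no replicate check here. An even spread over the effective genome size, the part to which tags can be mapped, would give 7.14 TCF1 peaks per 2 Mb. The window's 2 Mb are counted in full, so 9 and 7.14 are not on the same base. Of the 9, 3 lay in an EILP DHS (33.3%, 12.1 to 64.6), against 57.5% of all TCF1 peaks. DHS of all 3 stages held 2 of the 9, and 5 lay in no DHS, against 44.7% and 34.4% of all TCF1 peaks. Counted by region, 4 of the 95 EILP regions held a TCF1 peak (4.21%, 1.65 to 10.3), against 5.62% over the genome. The fourth region is one that an ILCP peak widened, so that the TCF1 peak missed the EILP peak itself.

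The 2 TCF1 peaks in DHS of all 3 stages lay close to the DHS summits. The peak at 128749522 to 128749687 had 6 tags, 30 bp from the EILP summit, in a region of 23, 27 and 32 tags in ALP, EILP and ILCP. It lay in a stretch of 5.41 to 5.74 times the mean tag density. The peak at 129283857 to 129284044 had 5 tags, 77 bp from the EILP summit, in the region of 42, 36 and 40 tags named above. The peak at 128704534 to 128704633 had 4 tags and lay 23 bp from an EILP summit of 7 tags and in an ALP peak of 13 tags, with no ILCP peak at the site.

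The TCF1 peak with the most tags, 7, lay at 129184475 to 129184574. It overlapped an ILCP DHS of 21 tags but not the EILP DHS of the same region, whose summit of 15 tags was 191 bp away. In ALP that region had 18 tags. Of the 5 TCF1 peaks outside all DHS, the one at 128786045 to 128786147 had 4 tags. It lay 458 bp before the region of 26 tags that was found in ILCP alone, and 2369 bp from the nearest EILP summit. The regions absent from ALP lay 443 to 807973 bp from a TCF1 peak, so this distance is among the shortest. The peak at 129224735 to 129224867 had 3 tags and lay 652 bp from the nearest EILP summit. The other 3, at 128991606 to 128991705 with 5 tags, 129537091 to 129537190 with 3 and 129561192 to 129561291 with 4, lay 2639 to 4614 bp from an EILP summit. No TCF1 peak was called beyond 129561291 in the window. Of the 42 regions absent from ALP, 0 overlapped a TCF1 peak (0 to 8.38%), against 2.21% of such regions over the genome, a share that lies inside this interval.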

How the data were processed

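DNase-seq of 3 stages gave open chromatin, and CUT&RUN of EILP gave TCF1 binding. MACS 2.1.1.20160309 was the authors' peak caller, per the file headers, run at a q cutoff of 0.05, from 1 pooled tag file per list with 50 bp tags, 1 tag kept per position and fragments of 100 bp. The DHS lists used no control and a 10 kb background, and TCF1 was called against a pooled control of 2919489 tags with backgrounds of 1 and 10 kb. The aligner is not given in the sources used here, and the build, mm9, is per the submitters' processing notes. Each deposited list gives the summit pileup, a signal in tags, the fold enrichment (a ratio to local background) and −log10 p and q values per peak, all the authors' own values.

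From these, regions were merged at 1 bp of overlap, and heights were scaled to 1000000 tags per list. Local background was derived from the deposited pileup and fold. Wilson intervals were computed for shares, exact Poisson intervals for heights and exact conditional intervals for height ratios, all at 95%, with Python 3.11.15 and scipy 1.17.1. The merging of regions and the height ratios were tested on copies of the EILP list. Known gains, losses and height changes were put into these copies and were recovered. The copies kept the same peak positions and equal depth, so partial overlaps and the scaling to depth were not tested. The other steps had no such test. Alternatives were a median-fold filter, a 2-fold mark, median-ratio scaling and others given in the closing section.

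The members and lists were chosen with earlier results of these data known. Regions named are those with a TCF1 peak, the 5 of highest fold in each opening pattern and the 5 largest changes per step and direction. Others are said to be named after their values were seen. The 2 libraries with conflicting labels were put in no group.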

Additional observations from a re-analysis of the deposited data

How the results depend on the processing

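Of 51 values under alternative settings, 40 stayed within 1.5 times the reported value and 11 moved further. Keeping only peaks at or above the median fold enrichment of their list left 69 regions in the window, 12 gained at ILCP and 16 lost at ILCP. A 2-fold mark left 0 shared regions higher and 3 lower in EILP than ALP, and 1 higher and 2 lower in ILCP than EILP. Median-ratio scaling gave 3 higher and 14 lower in EILP than ALP, and 5 lower in ILCP than EILP. Using fold enrichment as deposited gave 4 lower in ILCP than EILP. The first of these settings tests fewer peaks and the second is a stricter mark, and for the others the cause was not tested. Genome shares are given above for median-ratio scaling alone. The other counts have no background beside them and cannot be set against the genome. The number of merged regions has no value when each list's own peaks are the units, and that alternative was not run. No paired analysis was possible because each list pools its libraries. For the same reason no library could be left out. Depth limits the TCF1 peaks, which have 3 to 7 tags each.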
